A study of Mus musculus with 7 samples.

Results

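The genes described here are the mucins Muc5ac, Muc6, Muc1, Muc13 and Dpcr1, taken by name from the deposited tables: 5 of 18907 features. They were followed across the cell classes of the mouse stomach, and in pylorus against corpus. All samples are labelled WT, meaning wild type, and come from C57BL/6 mice with no treatment. The pylorus, the outlet of the stomach, gave 3 plates, which were set against 4 plates of the corpus, its acid-producing body. Gland cells that excluded DAPI, a dye that enters dead cells, were sorted singly into plates of 384 wells (SORT-seq) and counted by CEL-seq2, which tags each captured transcript with a unique molecular identifier (UMI). Of 2688 wells, 2235 held at least 1000 UMIs without spike-ins and were kept as cells, 983 from pylorus plates and 1252 from corpus plates. The labels give no ages or sexes, and they do not tie plates to single mice. P-values therefore measure the spread between plates.

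Mucins are proteins with long, heavily glycosylated stretches. Secreted mucins such as Muc5ac and Muc6 are built into polymers that form the mucus gel: Muc5ac is known as the mucin of surface (pit) cells and Muc6 as that of mucous neck and gland cells. Membrane mucins such as Muc1 and Muc13 stay anchored at the apical surface of epithelial cells and carry a short tail into the cytoplasm. Dpcr1, now named Mucl3, encodes a mucin-like protein with a predicted membrane span. In the mouse annotation, Muc6, Muc2, Muc5ac and Muc5b lie in a row on chromosome 7, Muc1 lies on chromosome 3, Muc13 on chromosome 16 and Dpcr1 on chromosome 17.

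Promoter sequences are shown for the 3 mucins whose pylorus and corpus plates did not overlap in the fit over all kept cells. Each is the 250 bases before the annotated start, on the gene's strand, 5′ to 3′, from RefSeq with build GRCm38.p6. The tables' own build is mm9, so these coordinates do not apply to them. Capitals mark the TATA box core TATAA, the GATA-type motif AGATAA, the GC box GGGCGG and the forkhead-type motif TGTTTAC, searched on both strands. No motif in this list contains another.
Muc6, chr7:141655394-141655643, minus strand: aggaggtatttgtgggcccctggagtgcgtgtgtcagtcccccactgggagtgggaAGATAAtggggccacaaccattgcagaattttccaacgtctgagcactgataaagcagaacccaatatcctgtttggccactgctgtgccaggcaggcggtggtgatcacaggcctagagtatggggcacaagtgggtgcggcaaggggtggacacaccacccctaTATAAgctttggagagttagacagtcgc
Muc1, chr3:89228806-89229055, plus strand: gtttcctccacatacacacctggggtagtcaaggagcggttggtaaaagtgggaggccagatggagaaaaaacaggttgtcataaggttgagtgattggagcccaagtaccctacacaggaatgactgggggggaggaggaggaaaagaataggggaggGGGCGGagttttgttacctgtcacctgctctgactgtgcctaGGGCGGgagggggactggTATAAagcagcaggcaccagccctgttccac
Dpcr1 (as Mucl3), chr17:35643696-35643945, minus strand: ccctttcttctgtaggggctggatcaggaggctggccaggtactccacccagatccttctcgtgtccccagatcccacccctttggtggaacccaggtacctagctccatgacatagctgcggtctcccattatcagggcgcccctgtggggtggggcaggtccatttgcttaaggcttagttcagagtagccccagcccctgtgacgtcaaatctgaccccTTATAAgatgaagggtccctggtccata

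A TATA box core began 28 bases before the start in Muc6 and 31 bases before it in Muc1. In Dpcr1 the core read at 27 bases on the gene's strand overlaps one read at 28 bases on the other strand. Muc6 also held AGATAA at 194 bases, and Muc1 held GGGCGG at 91 and 49 bases. Among 32851 promoters of the same length, 22.8% held TATAA, 9.99% AGATAA, 32.7% GGGCGG and 3.17% TGTTTAC. The 250 bases before each of the 2 listed starts of Muc13 held none of these letters. Muc5ac is named only.

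Plates differed in more than their region. Plates held 2646492 to 9511078 UMIs. The median kept cell held 6899 UMIs in corpus replicate 1 and 8240 in pylorus replicate 1, and 19648 to 25545 in the other 5 plates. Spike-ins took 6.55% of the UMIs of pylorus replicate 1 and 4.27% of those of corpus replicate 1, and 0.256% to 0.426% in the other 5. The library labelled corpus replicate 1 also held 3340 UMIs of Gast, the gastrin gene, in 138 of its 278 kept cells. Gastrin is a hormone known from the pyloric antrum, and the tables of the other 6 plates list no Gast. This library was used as corpus, as labelled. The 4 deepest plates were corpus replicates 3 and 4 and pylorus replicates 2 and 3, with 8261045 to 9511078 UMIs each, and results are also given for those alone. Corpus replicate 2, left out of these 4, held 5952905 UMIs, but its median cell of 19648 UMIs was close to the 20326 of pylorus replicate 2, so results with it added are given too. All plates use the same well barcodes, so a barcode shared by plates does not mark a shared cell.

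Cell classes were set by other marker genes, since the 5 mucins were left out of both the clustering and the markers. Pit-like cells numbered 504, mucous neck or gland-like cells 431, chief-like cells 283, endocrine-like cells 282, proliferating-like cells 154, parietal-like cells 143, mast-like cells 114 and tuft-like cells 50. A cluster of 219 cells, led by Slc1a3, Tff2, Mt2 and Myc, matched no class and is called the largest unnamed cluster. Another 55 cells also stayed unnamed. Corpus 1 differed in make-up from corpus 2 to 4. Its chief-like cells were 2.16%, against 20.1%, 9.97% and 7.49% in corpus 2 to 4 and 16.0%, 16.2% and 16.5% in pylorus 1 to 3. Its parietal-like cells were 1.08%, against 2.87%, 15.5% and 12.6% in corpus 2 to 4 and 0.8%, 3.30% and 5.42% in pylorus 1 to 3. Its proliferating-like cells were 22.3%, against 1.79%, 3.05% and 5.09% in corpus 2 to 4. The same class lay in different clusters in different plates: pit-like cells of corpus 1 and 2 and pylorus 1 formed a cluster of 213 cells, and those of the other 4 plates lay mostly in one of 264. Neck or gland-like and chief-like cells were divided the same way. A neck or gland-like cluster of 19 cells, led by Aqp5 and Cldn2, came from corpus 1 alone, and a pit-like cluster of 27 cells was led by interferon-induced genes such as Ifit1 and Isg15. Genes known from pancreatic acinar cells stood among the 10 leading genes of both chief-like clusters (Try10, Try4 and Pdia2 in each, Pnliprp2 in one) and of the larger endocrine-like cluster (Cel, Ptf1a and Pnliprp1). The 5 listed acinar markers, all detected, summed to 46.3 to 131 CPM in pylorus and 4.46 to 1223 CPM in corpus plates, and their part in the values of those classes was not tested.

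Muc5ac was mainly a transcript of pit-like cells. They held 72.3% of its 33521 UMIs and were 22.6% of the cells. Proliferating-like cells, which carry genes of cell division, held 13.0%, and the largest unnamed cluster 10.9%. Muc5ac stood at 2148 ± 1254 UMIs per 1000000 UMIs (CPM) in pit-like cells (SD, n = 7 plates), at 1245 ± 557 in proliferating-like cells (SD, n = 6) and at 716 ± 346 in the largest unnamed cluster (SD, n = 4). In every other class its mean was 128 CPM or less. At a resolution of 0.5, where the largest unnamed cluster was not formed, neck or gland-like cells averaged 166 ± 127 CPM (SD, n = 7 plates).

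Muc6 was held mostly by 1 class. Neck or gland-like cells had 84.5% of its 5919 UMIs and stood at 747 ± 362 CPM (SD, n = 7 plates), with 322 CPM in the lowest plate and 1396 CPM in the highest. The largest unnamed cluster came next, at 62.2 ± 65.6 CPM (SD, n = 4), and no other class had a mean above 29.9 CPM. The lowest neck or gland-like plate lay above the highest plate of every other class. This did not hold at a resolution of 0.5, where neck or gland-like cells averaged 602 ± 405 CPM (SD, n = 7 plates). Their lowest plate there stood at 170 CPM, below an endocrine-like plate at 342 CPM.

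Dpcr1 was distributed like Muc5ac. Pit-like cells held 70.3% of its 73915 UMIs, proliferating-like cells 12.8% and the largest unnamed cluster 10.5%. Its level was 3899 ± 1903 CPM in pit-like cells (SD, n = 7 plates), 2059 ± 1457 CPM in proliferating-like cells (SD, n = 6) and 1539 ± 1055 CPM in the largest unnamed cluster (SD, n = 4). The other classes averaged 128 to 256 CPM. At a resolution of 0.5, neck or gland-like cells averaged 458 ± 537 CPM (SD, n = 7 plates). A single cell held up to 775 UMIs of Dpcr1, below the ceiling of 4095 UMIs in these tables.

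Muc1 was the mucin spread most evenly over the epithelial classes. Pit-like cells held 38% of its 19966 UMIs, neck or gland-like cells 19.1%, chief-like cells 16.2%, the largest unnamed cluster 14.0% and proliferating-like cells 9.41%. Its level was 590 ± 133 CPM in pit-like cells (SD, n = 7), 540 ± 108 in neck or gland-like cells (SD, n = 7), 535 ± 100 in the largest unnamed cluster (SD, n = 4), 439 ± 105 in proliferating-like cells (SD, n = 6) and 385 ± 82.0 in chief-like cells (SD, n = 6). Endocrine-like cells stood lower, at 102 ± 81.7 CPM (SD, n = 7), and parietal-like cells, the source of gastric acid, at 41.0 ± 7.83 CPM (SD, n = 4). Neighbours in this order overlapped from pit-like to chief-like cells.

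Muc13 was scarce, with 37 UMIs in 22 cells. Tuft-like cells, chemosensory cells marked by Dclk1 and Trpm5, were 2.24% of the cells and held 24 of these UMIs, or 64.9%. A Muc13 UMI was seen in 10 of 50 tuft-like cells (20%, 95% Wilson interval 11.2 to 33.0%) at a median of 16553 UMIs, and in 12 of 2185 other cells (0.549%, 0.314 to 0.958%) at a median of 19597 UMIs. Tuft-like cells with Muc13 came from 5 plates, with 10 UMIs in pylorus 3, 1 in pylorus 2, 5 in corpus 4, 6 in corpus 3 and 2 in corpus 2. The 3 tuft-like cells of corpus 1 and the 4 of pylorus 1 held none. Thinned to 3000 UMIs, 2 of 48 tuft-like cells held Muc13 against 3 of 75 mast-like cells, so at that depth no difference was detectable. Intervals here and below cover counting error only. An antisense gene, Gm15657, overlaps Muc13, and the strand used in counting is not given in the sources used here.

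**Figure D1:**
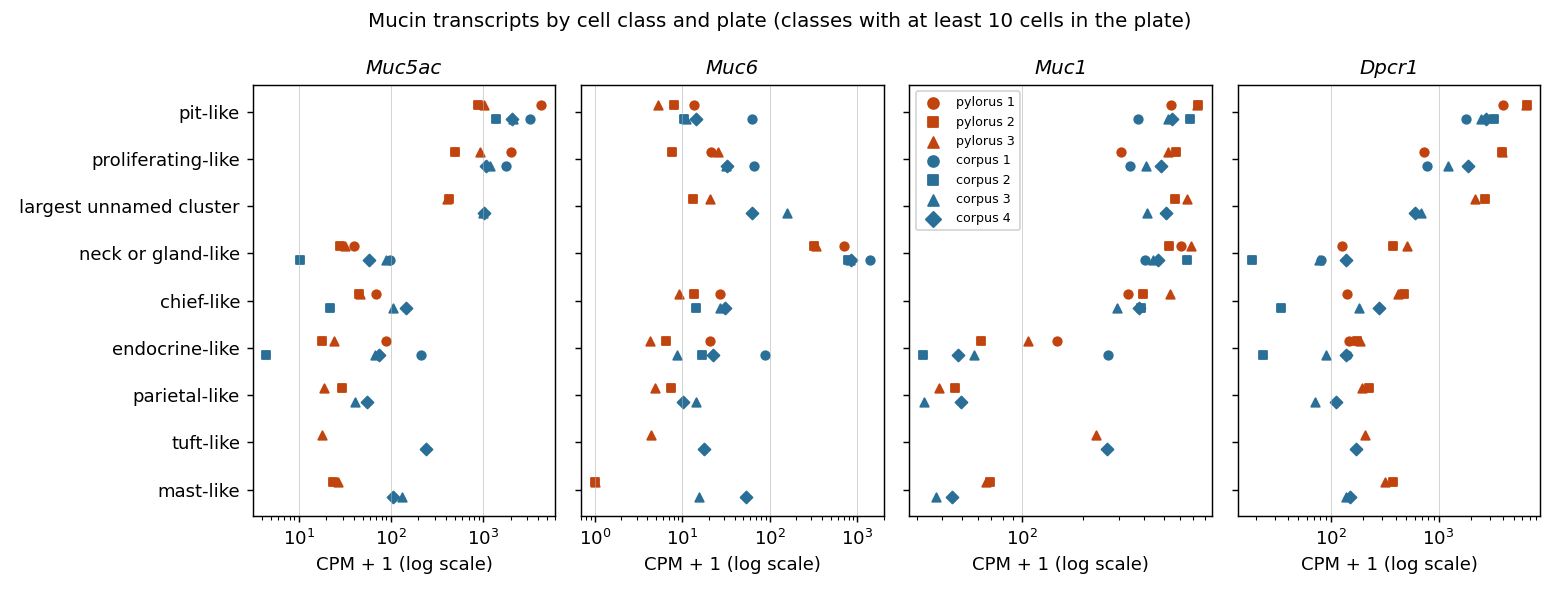
CPM + 1 (log axis) of Muc5ac, Muc6, Muc1 and Dpcr1 in each cell class, 1 point per plate with at least 10 cells of the class, with pylorus above corpus. Muc5ac and Dpcr1 are highest in pit-like cells, Muc6 in neck or gland-like cells (322 to 1396 CPM), and Muc1 is similar from pit-like to chief-like cells.

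Differences between neighbouring classes were tested within plates, with exact two-sided sign-flip permutation tests, wherever 6 plates held both classes. Of 9 such pairs none passed after Benjamini-Hochberg adjustment. With 6 or 7 plates a single pair could not pass by itself, even at its smallest possible p. Pit-like cells exceeded proliferating-like cells in 6 of 6 plates for Muc5ac, by 0.78 ± 0.34 on the log2 scale (SD), and for Dpcr1, by 1.12 ± 0.68. Both had an exact permutation p of 0.0313, the smallest that 6 plates allow, and an adjusted p of 0.141. For Muc1, pit-like exceeded neck or gland-like cells by 0.12 ± 0.22 in 5 of 7 plates (exact permutation p = 0.219, adjusted p = 0.45). Among only the 5 classes with at least 6 plates, an order added after the data were seen, Muc6 was 4.6 ± 0.54 log2 units higher in neck or gland-like than in proliferating-like cells in 6 of 6 plates (exact permutation p = 0.0313, adjusted p = 0.117 over 15 pairs).

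Mast-like cells, which are not epithelial, held mucin UMIs as well, and their shares are given beside those of the epithelial classes. Whether these UMIs are free RNA was not tested. Thinned to 3000 UMIs per cell, 94.7% of pit-like cells and 44.0% of mast-like cells held a Dpcr1 UMI, at median depths of 26365 and 5017 UMIs before thinning. Without thinning the shares were 96.8% in pit-like and 60.5% in mast-like cells. For Muc5ac the thinned shares were 90.9% in pit-like and 17.3% in mast-like cells (95.8% in pit-like and 26.3% in mast-like cells without thinning). For Muc6 they were 71.1% in neck or gland-like and 2.67% in mast-like cells (91.4% in neck or gland-like and 5.26% in mast-like cells without thinning), and for Muc1 78.7% in pit-like and 14.7% in mast-like cells (89.7% in pit-like and 18.4% in mast-like cells without thinning). Thinning left out 76 pylorus and 118 corpus cells below 3000 UMIs. Thinned shares of Muc5ac in chief-like (13.9%), neck or gland-like (11.9%), parietal-like (10.4%) and endocrine-like cells (7.72%) lay below that of mast-like cells when cells were pooled over plates. For Dpcr1 this held in parietal-like (28.9%), endocrine-like (28.6%), tuft-like (33.3%) and neck or gland-like cells (33.3%). Pooled shares mix plates: by plate, Muc5ac reached 48% in chief-like cells against 22.2% at most in mast-like cells, and Dpcr1 reached 69.2% in neck or gland-like cells against 59.1% at most in mast-like cells. In CPM, Muc5ac in chief-like cells exceeded that in mast-like cells in 3 of 4 plates, by 0.46 ± 0.54 on the log2 scale (SD). No expression is read from the low shares, and none is called absent.

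Levels in mast-like cells also differed between plates. Dpcr1 stood at 374 and 319 CPM in mast-like cells of pylorus 2 and 3, against 138 and 149 CPM in those of corpus 3 and 4. Muc5ac stood there at 22.6 and 26.0 CPM in pylorus 2 and 3, against 131 and 105 CPM in corpus 3 and 4. These Muc5ac values rest on 2 and 4 UMIs in pylorus 2 and 3 and on 18 and 12 UMIs in corpus 3 and 4. That of pylorus 2 lies below the 34.0 CPM that 3 UMIs would give there. In CPM both mucins thus lay in the same direction between the regions as in the pit-like cells of those plates. For Muc5ac this rests on few UMIs, and no test was made in mast-like cells.

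Over all kept cells, the pylorus plates all lay above the corpus plates for Dpcr1 and Muc1, Muc6 was lower on average and Muc5ac varied most between plates. None of the 4 mucins tested passed the test across all genes. Such sums cannot tell fewer cells of a type from less RNA per cell. Pit-like cells were 36.4%, 18.4% and 18.7% of the cells of pylorus 1 to 3, against 36.3%, 8.60%, 21.9% and 21.9% of those of corpus 1 to 4. The 8 pit markers, all detected, summed to 65832 to 81240 CPM in pylorus and 19486 to 73892 CPM in corpus plates, and the 8 neck or gland markers, all detected, to 6424 to 7644 CPM in pylorus and 4022 to 27225 CPM in corpus plates. The part of cell make-up in these sums was not tested.

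Dpcr1 had 1808, 2801 and 2481 CPM in pylorus 1 to 3, against 978, 511, 851 and 1122 CPM in corpus 1 to 4. Pylorus minus corpus was 1.53 ± 0.35 on the log2 scale (SE; limma, adjusted p = 1, unadjusted p = 0.00203). The plates of the regions did not overlap.

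Muc1 had 466, 503 and 523 CPM in pylorus 1 to 3, against 353, 416, 316 and 392 CPM in corpus 1 to 4. Its plates did not overlap between the regions either. The log2 difference was 0.48 ± 0.18 (SE; limma, adjusted p = 1, unadjusted p = 0.0262).

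Muc6 had 152, 48.3 and 43.8 CPM in pylorus 1 to 3, against 323, 211, 138 and 148 CPM in corpus 1 to 4. In pylorus 1 it lay among the corpus plates on this scale; after scaling by trimmed means of M values (TMM), which the fit used, the plates of the regions did not overlap. The log2 difference was -1.42 ± 0.42 (SE; limma, adjusted p = 1, unadjusted p = 0.0096).

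Muc5ac had 2001, 373 and 416 CPM in pylorus 1 to 3, against 1889, 205, 780 and 876 CPM in corpus 1 to 4. Replicates numbered 1 were the high plates in both regions, and the regions overlapped. The log2 difference was -0.04 ± 0.80 (SE; limma, adjusted p = 1). Its sign turned with several settings, among them leaving out corpus 1 (0.33). Muc13, with 1 to 15 UMIs per plate, was under the filter on low counts and was not tested.

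In these sums 2 of 12003 genes passed at an adjusted p under 0.05 (0.0167%) and 153 had an unadjusted p under 0.05. Plates of the regions did not overlap with pylorus higher in 1.71% of genes and with pylorus lower in 1.49%. Without corpus replicate 1 the log2 differences were 1.51 for Dpcr1, 0.36 for Muc1 and -1.26 for Muc6, and no gene passed. In the 4 deepest plates alone, 3.68% of genes passed (441 of 11978), among them Dpcr1 at 1.31 (limma, adjusted p = 0.00013), Muc5ac at -1.18 (adjusted p = 4.12e-05) and Muc6 at -1.70 (adjusted p = 2.12e-06). Muc1, at 0.42, did not pass there (adjusted p = 0.0583). With corpus 2 added to these 4 plates, a fit added after the data were seen, no gene passed (limma, 0% of 12212): Dpcr1 was at 1.71 (adjusted p = 0.977), Muc5ac at -0.43 (adjusted p = 0.977) and Muc6 at -1.81 (adjusted p = 0.153). P-values from 2 plates per region rest mostly on spread pooled over other genes, and this choice of plates was made with earlier results known.

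**Figure D2:**
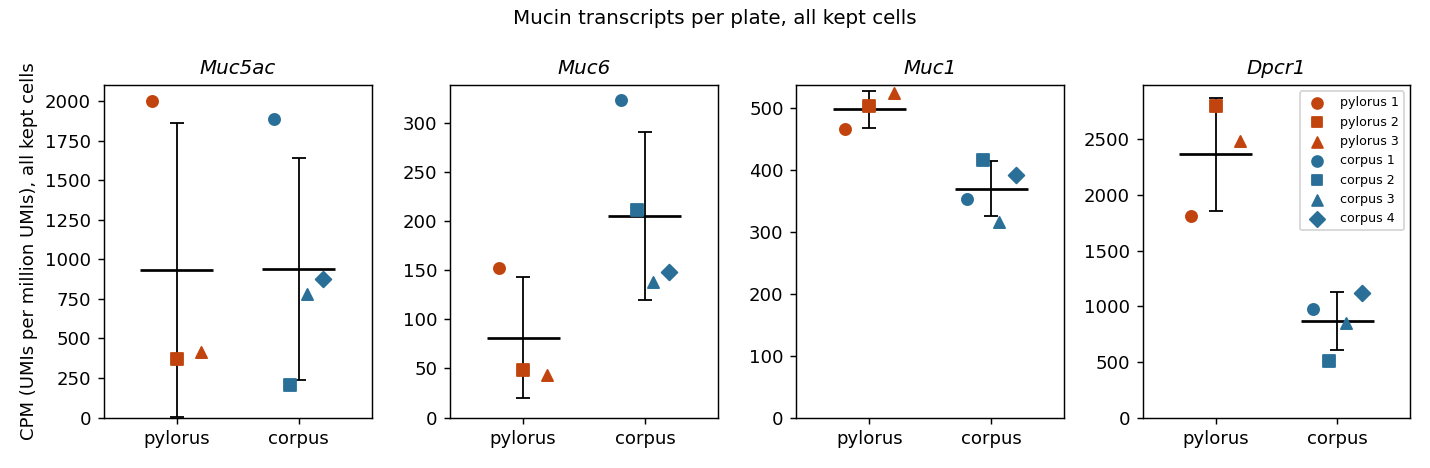
CPM of 4 mucins over all kept cells, pylorus plates left and corpus plates right; each point is a plate, the line is the mean and the bar the SD (n = 3 and 4). Pylorus and corpus plates are separate for Muc1 and Dpcr1, and replicate 1 of both regions is high for Muc5ac.

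Within pit-like cells the 2 pit mucins ran in opposite directions in the 4 deepest plates. Dpcr1 stood at 3936, 6592 and 6428 CPM in pylorus 1 to 3, against 1781, 3282, 2502 and 2772 CPM in corpus 1 to 4. Its plates did not overlap, as in 2.26% of genes with pylorus higher, and the log2 difference was 1.19 ± 0.32 (SE; limma, adjusted p = 1, unadjusted p = 0.00373). Muc5ac stood at 4325, 877 and 1017 CPM in pylorus 1 to 3, against 3250, 1384, 2112 and 2068 CPM in corpus 1 to 4. Pylorus 1 was the highest of all plates and pylorus 2 and 3 the lowest, with a log2 difference of -0.36 ± 0.48 (SE; limma, adjusted p = 1).

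No gene passed in pit-like cells by limma (0% of 9056; 209 at an unadjusted p under 0.05), and none with voom weights. In the 4 deepest plates alone 2.44% passed, with Dpcr1 at 1.22 (limma, adjusted p = 5.31e-09), Muc5ac at -1.22 (adjusted p = 4e-09) and Muc1 at 0.37 (adjusted p = 0.0343). With corpus 2 added 0.0442% passed, and none of the mucins did: Dpcr1 was at 1.22 (limma, adjusted p = 0.0991), Muc5ac at -0.92 (adjusted p = 0.872) and Muc1 at 0.37 (adjusted p = 0.872). Muc1 in pit-like cells had 543, 740 and 729 CPM in pylorus 1 to 3, against 372, 676, 521 and 550 CPM in corpus 1 to 4. The regions overlapped, and over all plates its log2 difference was 0.42 ± 0.27 (SE; limma, adjusted p = 1), and 0.18 without corpus 1.

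Dpcr1 UMIs per Muc5ac UMI in pit-like cells give both changes in 1 value, as a description. The ratio was 0.91, 7.51 and 6.32 in pylorus 1 to 3, against 0.548, 2.37, 1.18 and 1.34 in corpus 1 to 4. Pylorus 2 and 3 were the highest, while pylorus 1 lay within the corpus range. In proliferating-like cells the ratio was 0.367, 7.87 and 4.15 in pylorus 1 to 3, against 0.438, 1.02 and 1.77 in corpus 1, 3 and 4. In the largest unnamed cluster it was 6.29 and 5.37 in pylorus 2 and 3, against 0.674 and 0.597 in corpus 3 and 4. Across plates, replicate 1 of each region had low ratios in both of the classes it could be read in.

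**Figure D3:**
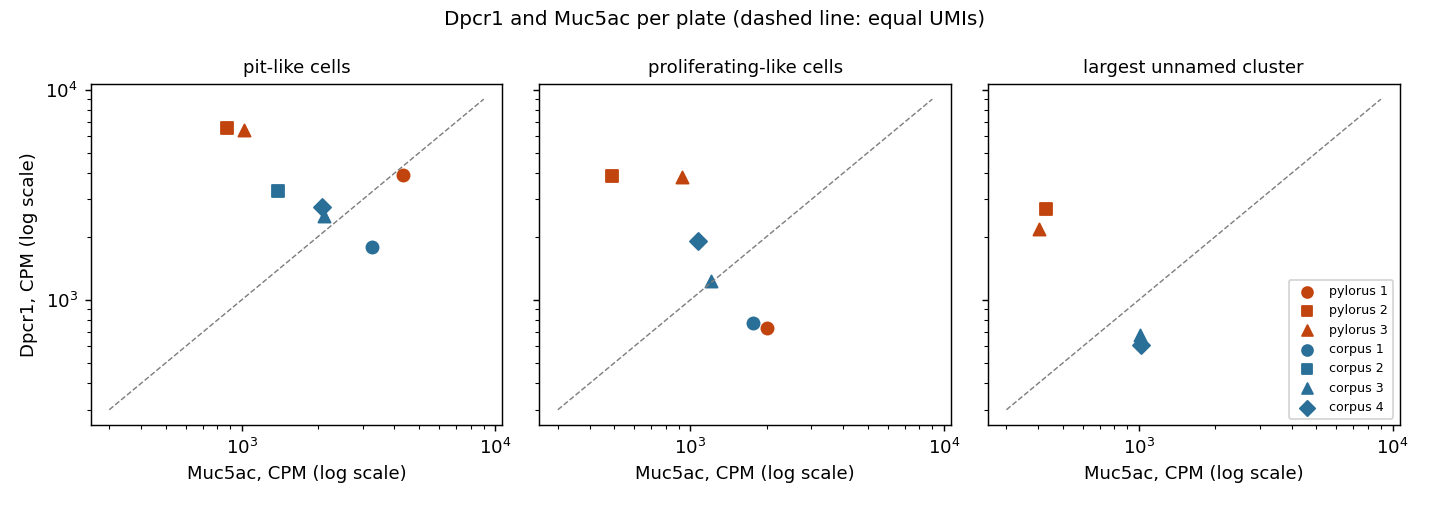
Dpcr1 against Muc5ac (CPM, both axes log) in pit-like cells, proliferating-like cells and the largest unnamed cluster, 1 point per plate with at least 10 cells; on the dashed line both have equal UMIs. Pylorus 2 and 3 lie far above the line in all 3 panels, with 4.15 to 7.87 Dpcr1 UMIs per Muc5ac UMI, while pylorus 1 lies just below it in the first panel (0.91) and well below it in the second (0.367).

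Within the 22 interferon-led pit-like cells of pylorus 2 and 3, Dpcr1 stood at 8272 and 8566 CPM, against 6143 and 5854 CPM in the larger pit-like cluster of the same plates. Muc1 stood at 1034 and 834 CPM in the interferon-led cells, against 662 and 701 CPM in the larger cluster. Muc5ac stood at 781 and 906 CPM in the interferon-led cells, against 903 and 1046 CPM in the larger cluster. With 11 of these cells per plate and clusters drawn from the same cells, no test was made.

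Within neck or gland-like cells Muc6 was lower in every pylorus plate. It stood at 712, 322 and 339 CPM in pylorus 1 to 3, against 1396, 784, 817 and 856 CPM in corpus 1 to 4. The plates did not overlap, as in 2.42% of genes with pylorus lower. The log2 difference was -1.16 ± 0.27 (SE; limma, adjusted p = 0.436, unadjusted p = 0.00102), and 3 of 8100 genes passed (0.037%). In corpus 1 the extra 19-cell cluster stood at 1446 CPM and the other 47 cells of its main cluster at 1394 CPM. Without corpus 1 the difference was -1.02 (limma, adjusted p = 0.514). In the 4 deepest plates alone it was -1.43 (limma, adjusted p = 7.55e-10), where 1.16% of genes passed. With corpus 2 added it passed at -1.34 (limma, adjusted p = 0.000979), where 0.388% of genes did.

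Muc1 in neck or gland-like cells had 609, 532 and 680 CPM in pylorus 1 to 3, against 405, 649, 441 and 468 CPM in corpus 1 to 4. The regions overlapped (log2 difference 0.29 ± 0.21, SE; limma, adjusted p = 0.996), and without corpus 1 the difference was 0.16. Dpcr1 in these cells had 126, 379 and 511 CPM in pylorus 1 to 3, against 80.5, 17.4, 76.4 and 136 CPM in corpus 1 to 4, and the regions overlapped. Its log2 difference was 2.15 ± 0.63 (SE; limma, adjusted p = 0.996); it passed in the 4 deepest plates at 1.99 (adjusted p = 1.62e-10) and with corpus 2 added at 2.85 (adjusted p = 0.0331). Beside mast-like cells of the same plate, neck or gland-like cells were higher in pylorus 3 (511 against 319 CPM), close in pylorus 2 (379 against 374 CPM) and lower in corpus 3 (76.4 against 138 CPM) and corpus 4 (136 against 149 CPM).

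In the largest unnamed cluster, 3 mucins passed the test. It held at least 10 cells in 2 plates per region only, and its fit was added after the clusters were seen. Dpcr1 rose to 2693 and 2174 CPM in pylorus 2 and 3, against 680 and 610 CPM in corpus 3 and 4, a log2 difference of 1.84 ± 0.15 (SE; limma, adjusted p = 1.17e-09). Muc5ac fell to 428 and 405 CPM in pylorus 2 and 3, against 1009 and 1022 CPM in corpus 3 and 4 (-1.35 ± 0.14, SE; limma, adjusted p = 2.33e-07). Muc6 fell to 12.2 and 19.7 CPM in pylorus 2 and 3, against 155 and 62.0 CPM in corpus 3 and 4 (-2.58 ± 0.30, SE; limma, adjusted p = 1.57e-06). All 3 mucins were separate between the plates of the regions in this cluster.

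In this cluster, Muc1 had 565 and 650 CPM in pylorus 2 and 3, against 410 and 513 CPM in corpus 3 and 4 (0.33 ± 0.15, SE; limma, adjusted p = 0.549). Of 8321 genes 0.745% passed, and the plates did not overlap with pylorus higher in 18.9% and with pylorus lower in 18.3%. The Muc5ac call was lost without pylorus 3 (limma, adjusted p = 0.109) and with cells thinned to 1000 UMIs (adjusted p = 0.0578). The Muc6 call was lost without pylorus 2 (limma, adjusted p = 0.169) or pylorus 3 (adjusted p = 0.113). Dpcr1 passed in each of these settings.

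In proliferating-like cells no gene passed by limma (0% of 6699; 124 at an unadjusted p under 0.05) or with voom weights. Muc6 there had 20.5, 6.55 and 24.5 CPM in pylorus 1 to 3, against 65.5, 30.9 and 31.5 CPM in corpus 1, 3 and 4, from 3 to 61 UMIs per plate. Its plates did not overlap, as in 4.24% of genes with pylorus lower (log2 difference -1.30 ± 0.47, SE; limma, adjusted p = 1). Dpcr1 stood at 737, 3873 and 3848 CPM in pylorus 1 to 3, against 774, 1228 and 1895 CPM in corpus 1, 3 and 4, with pylorus 1 the lowest of all. Muc5ac stood at 2006, 492 and 926 CPM in pylorus 1 to 3, against 1767, 1205 and 1072 CPM in corpus 1, 3 and 4. Neither was separate between the regions.

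In chief-like cells, which make pepsinogens, Muc1 had 332, 392 and 533 CPM in pylorus 1 to 3, against 383, 291 and 377 CPM in corpus 2, 3 and 4. On this scale the regions overlapped, and after TMM scaling they did not, as in 4.07% of genes with pylorus higher. The log2 difference was 0.30 ± 0.21 (SE; limma, adjusted p = 0.999). No gene passed in chief-like cells (limma, 0% of 7073; 184 at an unadjusted p under 0.05) or in endocrine-like cells (limma, 0% of 6258; 112 at an unadjusted p under 0.05), and voom weights gave 0 in both.

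In parietal-like cells Dpcr1 stood at 226 and 193 CPM in pylorus 2 and 3, against 70.6 and 111 CPM in corpus 3 and 4. It passed at a log2 difference of 0.90 ± 0.22 (SE; limma, adjusted p = 0.0214). Muc5ac stood at 28.3 and 18.1 CPM in pylorus 2 and 3, against 39.8 and 54.0 CPM in corpus 3 and 4. It passed at -1.27 ± 0.30 (SE; limma, adjusted p = 0.0185). The Muc5ac values rest on 13 and 14 UMIs in 12 and 20 cells of pylorus 2 and 3. In corpus 3 and 4 there were 89 and 76 UMIs in 56 and 42 cells. In CPM, Dpcr1 in each plate lay below that of its mast-like cells, and Muc5ac did in 3 of the 4 plates, all but pylorus 2. Parietal-like cells are deeper, and per cell they held more Dpcr1: 8.67 and 7.45 UMIs in pylorus 2 and 3 and 2.82 and 3.74 in corpus 3 and 4, against 1.38, 1.58, 0.792 and 0.654 UMIs per mast-like cell of the same plates. The part of free RNA in these levels was not tested. In these 2 plates per region 7.08% of 6860 genes passed, and the plates did not overlap with pylorus higher in 25.8% and with pylorus lower in 25.6%. The Dpcr1 call was lost without corpus 3, at 0.53 (limma, adjusted p = 0.477), and the Muc5ac call without corpus 4 (adjusted p = 0.283).

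**Figure D4:**
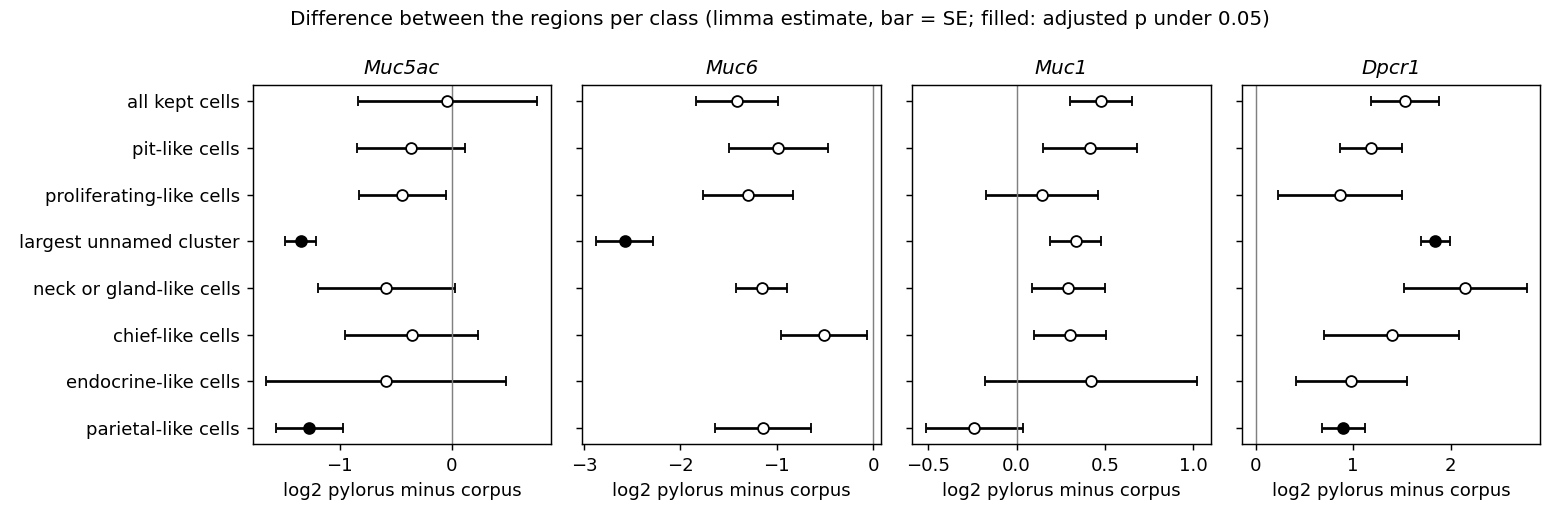
Log2 difference of pylorus minus corpus for 4 mucins in sums over all kept cells and in each class (points: limma estimates; bars: SE; filled points: adjusted p under 0.05). Dpcr1 lies above 0 in all 8 fits and Muc6 below 0 in the 7 where it was tested; only the largest unnamed cluster and parietal-like cells, with 2 plates per region, hold filled points.

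Shares of cells with a mucin UMI were compared after thinning each cell to 3000 UMIs. Exact two-sided permutation tests over 35 splits of the plates were used. Their smallest possible p is 0.0571, so no share could reach a p under 0.05. Muc6 was seen in 12.6% ± 4.93 of cells in pylorus plates and 25.4% ± 6.23 in corpus plates (SD, n = 3 and 4; exact permutation p = 0.0571, adjusted p = 0.171 over 6 tests). Pylorus plates held 18.1%, 10.9% and 8.71%, and corpus plates 33.0%, 27.8%, 19.0% and 21.9%, without overlap. Muc1 was seen in 65.4% ± 2.81 of cells in pylorus plates and 55.5% ± 2.25 in corpus plates (exact permutation p = 0.0571, adjusted p = 0.171), also without overlap. This separation depended on depth. With cells thinned to 1000 UMIs the regions overlapped for both mucins (exact permutation p = 0.171 for each). Without thinning they overlapped for Muc1 (exact permutation p = 0.286) but not for Muc6 (exact permutation p = 0.0571). How often the shares of other genes separate in this way was not tested. Dpcr1 was seen in 67.5% ± 10.5 in pylorus and 44.6% ± 19.9 in corpus plates (exact permutation p = 0.171, adjusted p = 0.343), and Muc5ac in 37.8% ± 8.48 in pylorus and 40.5% ± 21.2 in corpus plates (exact permutation p = 0.857, adjusted p = 0.857). Cells with both Muc5ac and Muc6 were 2.23% ± 1.91 in pylorus plates and 6.34% ± 5.96 in corpus plates (exact permutation p = 0.286, adjusted p = 0.429), with 14.8% in corpus 1.

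Among other mucins and sialomucins, Cd164, a sialomucin of the cell surface and lysosome, had 17394 UMIs, and Cd34, a sialomucin known from blood progenitors and vessels, 205. Of 17 listed, 10 were in the tables. Muc2, the intestinal goblet-cell mucin that lies between Muc6 and Muc5ac, had 50 UMIs, 35 of them in pit-like cells. Muc5b, the airway mucin beside Muc5ac, had 48, and Muc4 had 75, of which 53 came from corpus 1 (19.7 CPM, against 1.77 CPM or less in each other plate). Sfta2, which overlaps Dpcr1 on the other strand, had 191 UMIs.

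The genes that work with mucins did not pass the test in sums over all kept cells (limma). Of 23 secretory partners tested, 10 were higher and 13 lower in pylorus, with a median log2 difference of -0.04 against -0.00 for all genes. The most abundant were Tff1 (0.64 ± 0.78, SE), Gkn2 (0.98 ± 0.75), Gkn1 (1.09 ± 0.68) and Tff2 (0.09 ± 0.62). Trefoil factors are secreted beside mucins, and gastrokines are secreted proteins of pit cells. Of 33 genes of mucin-type glycosylation tested, 22 were higher and 11 lower, with a median of 0.07. The most abundant were Gfpt1, which begins hexosamine synthesis, Gcnt3, which branches mucin glycans, and the glycan-starting enzymes Galnt7 and Galnt4, at -0.28, 0.18, -0.25 and 0.26. A4gnt, which caps the glycans carried by Muc6, was separate between the regions at 97.6 ± 34.9 CPM in pylorus and 183 ± 26.9 CPM in corpus plates (SD, n = 3 and 4; -0.94 ± 0.24, SE; limma, adjusted p = 1). Of 15 membrane partners of Muc1 and Muc13 tested, 10 were higher and 5 lower, with a median of 0.11 and with Cdh1, Ezr, Ctnnb1 and Jup, genes of cell adhesion and its link to actin, at 0.22, 0.29, 0.14 and 0.22.

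Genes most like each mucin were found over 43 sums of 8 named classes per plate, among 5882 genes, by Pearson's r of log2 CPM. These sums share plates and depth, and r is given as a description. Of the genes below, Gkn1, Gkn2, A4gnt, Gkn3 and Pga5 were also among the markers that named the classes. For Muc5ac they were Adh7 (0.94), Nqo1 (0.93), Gsta3 (0.93), Sptssb (0.92) and Gsdma2 (0.91). For Dpcr1 they were Gkn1 (0.95), Aldh3a1 (0.94), Gkn2 (0.94), Syt8 (0.94) and Lgals2 (0.91), and Dpcr1 and Muc5ac had 0.80 between them. For Muc6 they were A4gnt (0.91), Gkn3 (0.91), Gfpt1 (0.86), Aqp5 (0.84) and Pga5 (0.79). For Muc1 they were Tnfrsf21 (0.89), Gcnt3 (0.85), Sel1l3 (0.85), Ugt2b34 (0.84) and Arf4 (0.82). For Muc13, on few UMIs, they were Stard5, Lrmp, Rgs2, Skap2 and Strip2 (0.74 to 0.80).

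Within classes, Muc5ac and Dpcr1 varied together more in proliferating-like cells than in pit-like cells, as a description over cells that share a plate. The median within-plate correlation was 0.67 in proliferating-like cells (3 plates, 0.43 to 0.76), 0.38 in the largest unnamed cluster (4 plates, 0.21 to 0.72) and 0.12 in pit-like cells (7 plates, -0.10 to 0.51). Muc5ac and Muc1 had medians of -0.09, 0.02 and 0.05 in the same classes. Pooled over plates, 70.6%, 54.4% and 90.9% of the thinned cells of these classes held a Muc5ac UMI. The part of a mix of cells within a class was not tested.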

How the data were processed

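Single-cell UMI counts of 7 plates were analysed, 3 of pylorus and 4 of corpus, each plate 1 replicate. Per the file headers, the deposited tables give a row per gene and a column per well; their whole numbers are raw UMI counts. The submitters' processing notes name the build mm9. Neither the aligner nor the counting program is given in the sources at hand. Totals ran from 2646492 to 9511078 UMIs per plate. Absent rows were taken as 0. Doublets were not called, as wells were filled by a sorter.

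The mucins, the gene lists and the use of the 4 deepest plates were chosen with earlier results of these data known. Cells (at least 1000 UMIs) were scaled to 10000 UMIs, put on a log scale and clustered with scanpy 1.11.5 (without the mucins and mitochondrial genes, on 2000 variable genes, 30 principal components, 15 neighbours, Leiden resolution 1.0). A cluster took the class with the highest mean log2 fold of its markers over other cells of the same plates, if at least 3 were seen in over 25% of cells and the mean was at least 0.5; leading genes of another class left it unnamed. The within-plate fold was chosen after seeing which clusters an earlier rule named. No immune class was named, as the depth rule left out a cluster of 19 cells that came closest to it. Its immune markers had a mean log2 fold of 4.91, and it was led by Ccl5, Thy1 and Ms4a4b. Tuft-like cells reached 10 cells in too few plates to be fitted.

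Counts were summed per plate and, for classes with 10 or more cells in a plate, per class. Sums were scaled by TMM and filtered on low counts, and log2(CPM + 2) was fitted across all genes by limma 3.58.1 in R 4.3.3, using a mean trend and Benjamini-Hochberg adjustment. Count models were not used because the tables' layout failed their unit check. Printed CPM are per all UMIs, unscaled, except for the listed mucin partners (TMM-scaled). Shares and class orders used exact permutation tests in scipy 1.17.1. Genes named beside the mucins are the 5 most like each and up to 4 of the most abundant per list; Muc4, A4gnt, Sfta2, Muc2 and Muc5b were added after their values were seen. The fits were tested on simulated data.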

Additional observations from a re-analysis of the deposited data

Results flagged for a closer look

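The library labelled corpus replicate 1 stood far above the other 3 corpus plates in 5 values, by the gap to the nearest plate over the range of the group. Muc6 had 61.8 CPM in its pit-like cells, against 9.60 to 13.2 CPM in the other corpus plates, and 1396 CPM in its neck or gland-like cells, against 784 to 856 CPM. In its endocrine-like cells Muc6 had 88.0 CPM (7.70 to 21.2 CPM in the others), Muc1 264 CPM (31.3 to 56.5 CPM) and Muc13 35.2 CPM (0 in the others). These 23 endocrine-like cells held 5, 15 and 2 UMIs of the 3 mucins. In corpus replicate 4, 1 UMI put Muc13 at 0.765 CPM in neck or gland-like cells, with 0 in the other corpus plates. Such a gap was looked for in 19 groups of 4 plates and found in 6, of which 5 lie in corpus replicate 1. For independent, normally distributed values chance flags about 1 in 20 groups. The groups here share the same 4 corpus plates, and normality was not tested, so 6 of 19 is not set against that rate. The rate also does not apply to the 2 Muc13 values, where the other plates are at 0 and any UMI gives the full gap. Pylorus has 3 plates, so none of its plates could be flagged. What sets corpus replicate 1 apart was not tested.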

How the results depend on the processing

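Dpcr1 stayed higher in pylorus over all kept cells in all 17 alternatives (1.26 to 1.71 on the log2 scale), as did Muc1 (0.24 to 0.55), and Muc6 stayed lower (-1.98 to -1.08). Muc5ac over all kept cells turned to 0.054 with voom weights, and leaving out 1 plate gave -0.82 to 0.38. The replicate block also leaves out corpus 4, which has no partner, and gave 0.0951, the value without corpus 4. The 4 deepest plates alone gave -1.18, -1.70 and 1.31 for Muc5ac, Muc6 and Dpcr1, all past the threshold, a call that ended with corpus 2 added. Replicate numbers were not taken as pairs, as the labels do not say that equal numbers mark a pair. Corpus and pylorus plates of the same number deviated together at r = 0.45, -0.11 and 0.47. For plates of different number r ran from -0.51 to 0.46. It was 0.46 for corpus 4 and pylorus 3 and 0.37 for corpus 3 and pylorus 2. With the replicate block, 1 gene passed over all kept cells, 1 in pit-like and 14 in neck or gland-like cells. These fits used the plates with a partner. Without corpus 4 and with no block, 0, 0 and 3 passed there. The block gave 5 in chief-like and 7 in proliferating-like cells, against 0 and 0 without corpus 4 and with no block. For these 2 classes the plates differ, as the block also left out pylorus 1 in chief-like and pylorus 2 in proliferating-like cells. Muc6 in neck or gland-like cells passed at -1.17 with the block (limma, adjusted p = 0.0326), and had the same value without corpus 4 alone (adjusted p = 0.978).

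Genes passing over all kept cells numbered 0 with no filter or voom weights, 1 at 1000 UMIs per cell, 441 in the 4 deepest plates, 0 with corpus 2 added to these, and 0 to 2 without 1 plate. In pit-like cells they numbered 1 with a pseudocount of 0.5 or a resolution of 0.5, 215 in the 4 plates, 4 with corpus 2 added and 0 to 3 without 1 plate. In neck or gland-like cells they numbered 92 in the 4 plates, 33 with corpus 2 added, 0 at 1000 UMIs and 1 to 4 without 1 plate. In chief-like cells they numbered 3 with no filter, 39 in the 4 plates, 3 with corpus 2 added and 0 to 3 without 1 plate, in proliferating-like cells 1, 9 and 0 to 1, and in endocrine-like cells 18 in the 4 plates, 1 with corpus 2 added and 0 without any 1 plate. In parietal-like cells they numbered 1009 without TMM, 33 at 1000 UMIs and 142 to 1380 without 1 plate. In the largest unnamed cluster they numbered 11 with no filter, 2 at 1000 UMIs and 3 to 111 without 1 plate.

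Leaving out 1 plate moved Muc5ac from -1.05 to 0.031 in pit-like cells (highest without pylorus 2), from -1.19 to 0.16 in chief-like cells (without corpus 4), from -0.91 to 0.0028 in proliferating-like cells (without pylorus 2) and from -1.68 to 0.060 in endocrine-like cells (without corpus 1). It moved Muc1 from -0.59 to 0.066 in parietal-like cells (highest without corpus 4) and from -0.083 (without corpus 1) to 0.47 in proliferating-like cells. Muc5ac also turned to 0.17 in neck or gland-like cells at a resolution of 0.5 and to 0.37 in endocrine-like cells with voom weights. Muc1 turned to 0.068 in parietal-like cells without TMM and to -0.065 in the largest unnamed cluster at 1000 UMIs. Between classes, Muc5ac of endocrine-like minus neck or gland-like cells turned to -0.017, -1.27 and -0.27 (pseudocount, resolution, 4 plates), Muc6 of endocrine-like minus pit-like cells to -0.056 (4 plates), and Muc13 of neck or gland-like minus chief-like cells to -0.0069 (resolution). Leaving out 1 plate moved the share difference from -12.5 to 4.15 percentage points for Muc5ac (highest without corpus 1) and from -0.050 (without pylorus 3) to 0.51 for Muc13. The causes were not tested. Depth limits Muc13, with 37 UMIs in all, and the spread between plates limits Muc5ac, with 33521 UMIs and an SE of 0.80 over all kept cells.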
